A study of Mus musculus with 8 samples.

Results

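Podocytes are the epithelial cells that cover the capillaries of the glomerulus, and the genes described here are 34 that build the podocyte, the slit diaphragm between its foot processes and the glomerular basement membrane below it. A gene was taken up when the RefSeq accession of a probe on the array belonged to its symbol. All 34 genes had at least 1 probe, and 30 of them gave a signal well above background on enough arrays to be tested, out of 13982 genes tested and 20887 named on the array. The RNA came from whole kidneys of C57BL/6 mice at embryonic day 16.5, with 4 wildtype samples (WT1 to WT4, labelled as control) and 4 samples of a conditional Dot1 knockout (KO1 to KO4), each a pair of kidneys. Dot1l encodes the histone methyltransferase that modifies a lysine in the core of histone H3. The deletion was directed to nephron progenitor cells that express Six2, a lineage that gives rise to podocytes and tubules but not to stroma, vessels or collecting duct, which the whole-kidney RNA also holds. No Cre line, floxed allele or further genotype of the controls was given in the sources used here.

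The filter of the glomerulus has 3 layers: a fenestrated endothelium, a basement membrane rich in laminin and type IV collagen, and the podocytes. Podocyte foot processes interlock, and nephrin (Nphs1) and its partners span the gap between them as a slit diaphragm, anchored through adaptor proteins to the actin skeleton. Podocytes arise in the proximal part of the S-shaped body, and in a mouse kidney at this age mature glomeruli lie beside nephrons that are still forming. In RNA of a whole kidney, fewer podocytes and less of a transcript per podocyte cannot be told apart.

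The red channel (Cy5) carried the sample and the green channel (Cy3) carried RNA of WT1 on all 8 arrays, so each value below is a log2 ratio of a sample over WT1, and differences are KO minus WT on that log2 scale. WT1 itself was hybridised against its own RNA, and over the 30 genes that array gave ratios from -0.50 to 0.27 with an SD of 0.18, where equal labelling would give 0. The arrays lay on 1 slide, with the WT samples in one row and the KO samples in the other, so row and genotype cannot be told apart. WT1 and KO1 read brighter than the rest at dim spots, with median red signals of the negative controls of 1361 and 478 against 58 to 61 on the other 6 arrays. Brighter spots shared this to different extents. Arhgdia, the brightest of the 30 genes, read 76591 in WT1 and 42799.5 to 90923 on those 6. Lamb2 read 16814.5 in WT1 against 2436 to 3792, and Actn4 15619.5 against 8494 to 14098. The green channel held the same RNA on every array. Its median correlation with those 6 arrays was 0.562 for WT1 and 0.904 for KO1, against 0.996 to 0.997 among the 6. The cause was not tested. The Y-linked gene Ddx3y was high (2.31 to 3.30) and Xist low in all 4 KO samples and in WT2. The reverse held in WT1, WT3 and WT4, so sex was uneven between the groups. A fit with sex as a covariate therefore compares the 4 KO samples with WT2 alone. Its differences rest on that 1 WT sample, and it cannot separate sex from the spread between WT samples. The Dot1l probe read -0.23, -0.21, -0.09 and -0.09 in WT1 to WT4 and -0.13, -0.04, -0.21 and -0.11 in KO1 to KO4, which overlapped (difference 0.03 ± 0.08 SE, adjusted p = 0.924). Whether that probe lies in a deleted exon is not known here, and untargeted cells also carry the transcript. Cited1, a marker of the Six2-positive progenitors, fell by 2.72 (adjusted p = 2.79e-08). Six2 itself differed by -0.21 ± 0.12 SE (adjusted p = 0.439), with overlapping groups. Of 7 progenitor markers 2 passed an adjusted p of 0.05, both lower in KO, and 2 were nominally higher in KO.

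The podocyte and filter genes differed between KO and WT kidneys by at most 0.41 on the log2 scale, a 1.33-fold difference. At a limma adjusted p under 0.05 none of the 30 was called, against 301 of 13982 genes over the array, or 2.15%. Over the array that count was 556 with the replicate number as a block and 12 with sex as a covariate, each again with none of the 30. At an unadjusted p under 0.05 there were 7 of the 30 (Tjp1, Fat1, Clic5, Enpep, Kirrel and Ezr with KO higher, Npr3 with KO lower), against a background of 14.5% of all genes. Without the brighter arrays WT1 and KO1 that count was 2 of 30, Clic5 and Fat1. There too none of the 30 passed the adjusted p, where 1.76% of all genes did. The groups did not overlap at 3 of the 30 genes, Tjp1, Ezr and Cd2ap, each with every KO sample above every WT sample, against 9.28% of all genes. The median difference was 0.08, beside 0.03 over all genes, and the differences ran from -0.24 (Npr3) to 0.41 (Fat1). KO was nominally higher at 22 of the 30 genes, or 73.3%, against 59.3% of all genes. With sex as a covariate it was higher at 18 of the 30 and at 7705 of the 13982 genes. The 4 samples a group set a standard error of 0.0764 to 0.219 a gene, and the 95% interval of the difference, taken gene by gene, stayed within a 2-fold change at all 30 genes and within 1.5-fold at 27. With sex as a covariate 27 of the 30 intervals stayed within 2-fold.

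**Figure D1:**
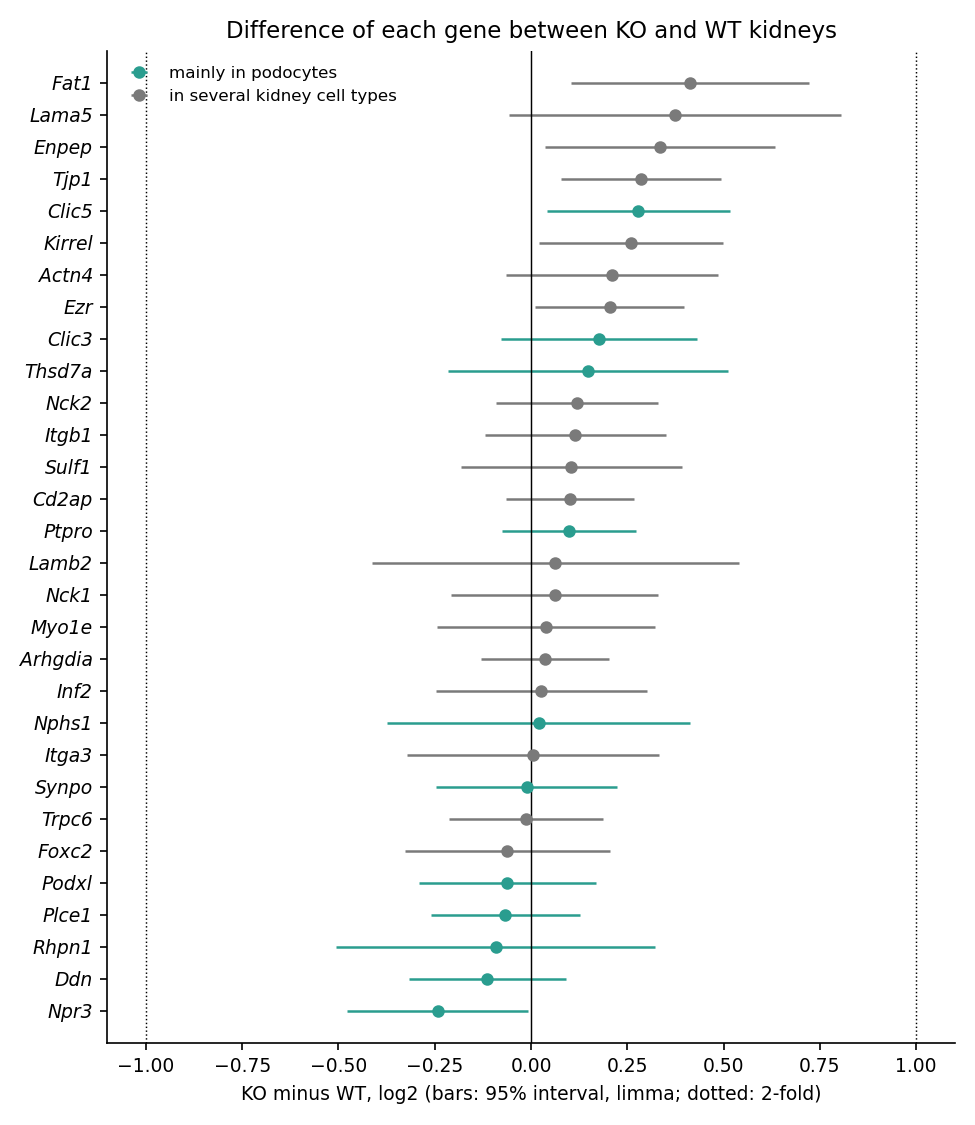
Difference in mean log2 ratio, KO minus WT, of the 30 tested genes with its 95% interval from the fit (n = 4 per group), ordered by size. Genes listed as made mainly by podocytes are in green, and dotted lines mark a 2-fold change. Points lie between -0.24 and 0.41, and no gene passed an adjusted p of 0.05.

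Nphs1 encodes nephrin, the immunoglobulin superfamily protein that forms the slit diaphragm. Its log2 ratios were -0.03, -0.34, 0.20 and 0.07 in WT1 to WT4 and 0.02, -0.52, 0.50 and -0.01 in KO1 to KO4. KO2 was the lowest and KO3 the highest of all 8 samples, and the WT values lay between them. The difference was 0.02 ± 0.18 SE (adjusted p = 0.979), with a 95% interval of 0.772- to 1.33-fold. Its red signal was 526 to 1103 on the 6 dimmer arrays, far from their background of 58 to 61.

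Ptpro, a receptor tyrosine phosphatase of the podocyte's apical membrane, varied least of the defining genes. It read -0.07, -0.05, 0.04 and -0.10 in WT1 to WT4 and -0.04, 0.06, 0.14 and 0.05 in KO1 to KO4. KO3 was highest, and only WT3 reached into the range of the KO samples (difference 0.10 ± 0.08 SE, adjusted p = 0.646).

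Kirrel encodes NEPH1, which binds nephrin across the slit. It read -0.04, 0.02, 0.17 and 0.24 in WT1 to WT4 and 0.47, 0.49, 0.06 and 0.41 in KO1 to KO4. All KO samples but KO3 lay above every WT sample, and the difference was 0.26 ± 0.11 SE (adjusted p = 0.298). The gene's other 2 kept probes, which are dimmer, gave differences of -0.07 and 0.02, so the 3 probes did not share a direction.

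Among the junction proteins, Tjp1 (ZO-1, a scaffold that ties junctions to actin) came closest to the threshold. It read -0.29, -0.34, -0.06 and -0.06 in WT1 to WT4 and 0.23, 0.03, 0.05 and 0.09 in KO1 to KO4. Every KO sample was above every WT sample, and the difference was 0.29 ± 0.10 SE (adjusted p = 0.166). Fat1, a giant cadherin found at the slit, had the largest difference of the 30 genes. It read -0.49, -0.06, -0.35 and -0.47 in WT1 to WT4 and -0.14, -0.01, 0.49 and -0.07 in KO1 to KO4. WT2, the male wildtype sample, lay among the KO samples and KO3 far above them, with a difference of 0.41 ± 0.14 SE (adjusted p = 0.182). Without KO3 the Fat1 difference was 0.27, and with sex as a covariate it was 0.13. Both genes are made in many epithelia besides podocytes.

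Cd2ap, an adaptor that links nephrin to actin and endocytosis, read -0.12, -0.05, 0.01 and -0.03 in WT1 to WT4 and 0.08, 0.02, 0.07 and 0.05 in KO1 to KO4. The groups were separate by a narrow gap between WT3 and KO2, and the difference was 0.10. The other adaptors that bind phosphorylated nephrin, Nck1 and Nck2, differed by 0.06 and 0.12 with overlapping groups. Plce1, the phospholipase C epsilon mutated in some human nephrotic syndromes, differed by -0.07. Trpc6, a calcium-permeable channel at the slit, differed by -0.01, but it was well above background on only 4 arrays and its red signal was 73 to 104 on the 6 dimmer ones. Over the 10 slit diaphragm and signalling genes tested, KO was nominally higher at 8 with a median difference of 0.10, and none passed.

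**Figure D2:**
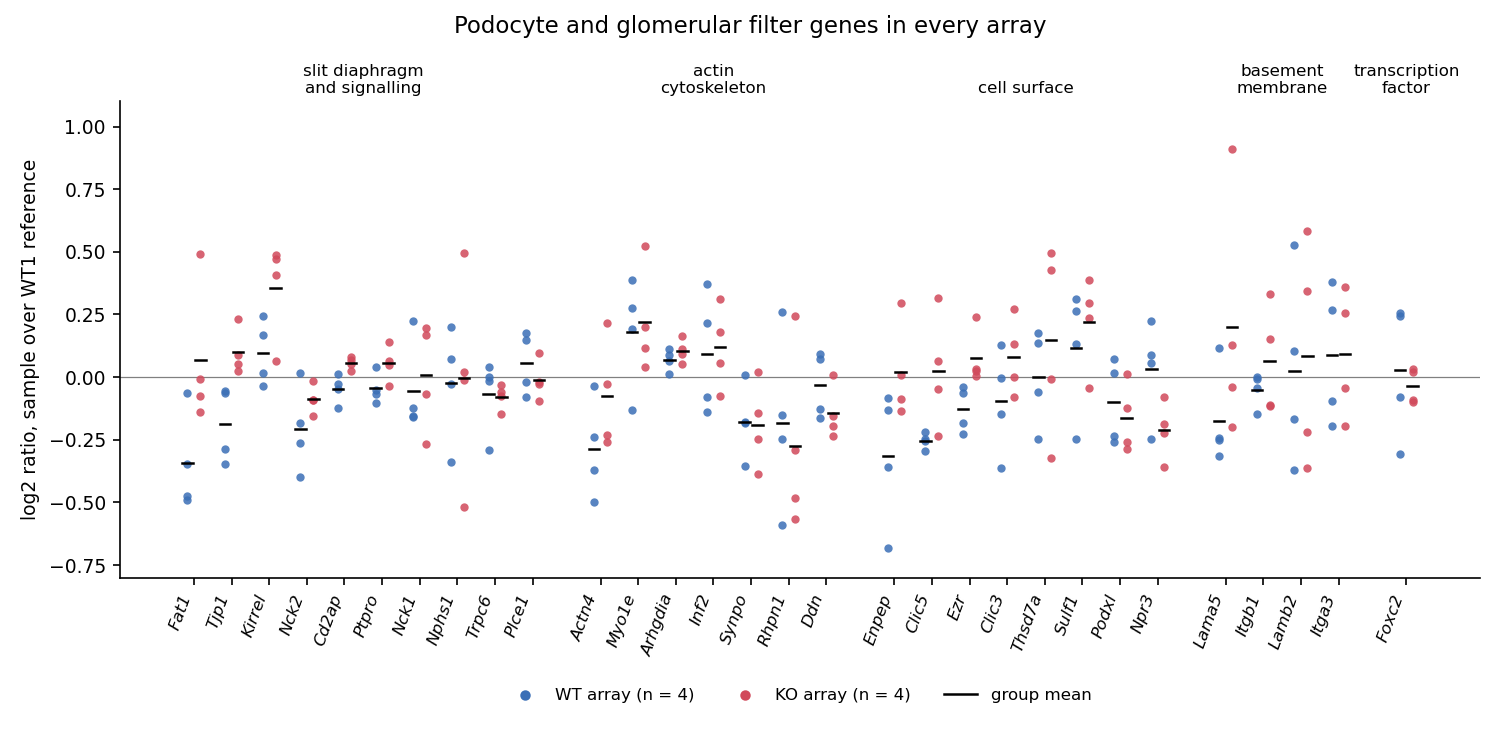
Log2 ratio over WT1 RNA of each of the 30 tested genes in the 8 arrays (4 WT, 4 KO), grouped by role, with a point per array and a bar at each group mean. The WT and KO points overlap at 27 of the 30 genes and are apart at Tjp1, Cd2ap and Ezr.

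None of the genes of the actin skeleton reached an unadjusted p of 0.05. Synpo encodes synaptopodin, an actin-bundling protein of mature podocytes. It read 0.01, -0.18, -0.18 and -0.35 in WT1 to WT4 and -0.39, -0.14, 0.02 and -0.25 in KO1 to KO4. Each group spanned nearly the same range, with a difference of -0.01 ± 0.11 SE (adjusted p = 0.980), and the gene's other kept probe gave 0.05. Actn4, the actin crosslinker alpha-actinin-4, read -0.50, -0.04, -0.24 and -0.37 in WT1 to WT4 and -0.26, -0.03, 0.22 and -0.23 in KO1 to KO4. KO3 was again highest, and WT2 and WT3 lay within the KO range, with a difference of 0.21 ± 0.13 SE (adjusted p = 0.489), which was -0.04 with sex as a covariate. Ddn (dendrin, a nephrin-bound protein that can move to the nucleus) differed by -0.11 and Rhpn1 by -0.09. Arhgdia, a GDP-dissociation inhibitor of small GTPases, the formin Inf2 and the motor Myo1e each differed by 0.04 or less. Of the 7 cytoskeletal genes tested, 4 were nominally higher and 3 lower in KO (median 0.03).

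Podxl encodes podocalyxin, the charged sialomucin that keeps foot processes apart, and it is also made by endothelium. It read -0.23, 0.02, 0.07 and -0.26 in WT1 to WT4 and -0.29, 0.01, -0.12 and -0.26 in KO1 to KO4. The values of the groups interleaved, with a difference of -0.06 ± 0.11 SE (adjusted p = 0.856). Ezr, the ezrin that tethers podocalyxin to actin, read -0.23, -0.06, -0.04 and -0.18 in WT1 to WT4 and 0.03, 0.01, 0.24 and 0.03 in KO1 to KO4. Every KO sample was above every WT sample, KO3 by the most, and the difference was 0.20 ± 0.09 SE (adjusted p = 0.310).

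Clic5, a chloride intracellular channel protein that associates with ezrin at the foot process, was close to uniform in the WT samples, at -0.26, -0.22, -0.29 and -0.25 in WT1 to WT4. It was -0.23, -0.05, 0.32 and 0.06 in KO1 to KO4. KO1 lay within the WT values and the other KO samples above them, so that the difference of 0.28 ± 0.11 SE (adjusted p = 0.252) came with a wider spread in KO (SD 0.23 against 0.0306 in WT). Its relative Clic3 read from -0.36 in WT2 to 0.13 in WT3 and from -0.08 in KO2 to 0.27 in KO3, and the groups overlapped (difference 0.18 ± 0.12 SE, adjusted p = 0.542).

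Enpep, the glutamyl aminopeptidase that degrades angiotensin II and is abundant in proximal tubule as well as podocytes, read -0.13, -0.68, -0.08 and -0.36 in WT1 to WT4 and 0.30, -0.09, 0.01 and -0.13 in KO1 to KO4. WT2 was the lowest sample and KO1 the highest (difference 0.33 ± 0.14 SE, adjusted p = 0.277). With sex as a covariate, which compares the KO samples with WT2, the male wildtype, the difference was 0.70. Npr3, the clearance receptor for natriuretic peptides, was the only gene of the 30 below an unadjusted p of 0.05 with KO lower. It read 0.23, -0.25, 0.09 and 0.06 in WT1 to WT4 and -0.08, -0.22, -0.36 and -0.19 in KO1 to KO4. WT2 lay among the KO samples and the other WT samples above them (difference -0.24 ± 0.11 SE, adjusted p = 0.325), and with sex as a covariate the difference was 0.03. Thsd7a, a podocyte membrane protein, differed by 0.15 (-0.03 at its other kept probe), and Sulf1, an extracellular heparan sulfatase, by 0.10 (-0.22 at its other kept probe). Of the 8 surface genes tested, 6 were nominally higher in KO (median 0.16).

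The laminin chains of the mature glomerular basement membrane and the integrin that binds them were nominally higher in KO at 4 of 4 genes, with a median of 0.09 and wide scatter. Lama5, the alpha-5 laminin chain, read -0.32, 0.12, -0.24 and -0.25 in WT1 to WT4 and -0.20, 0.13, 0.91 and -0.04 in KO1 to KO4. WT2 lay among the KO samples, and KO3 set most of the difference of 0.37 ± 0.20 SE (adjusted p = 0.424), which was 0.14 without that sample and 0.08 with sex as a covariate. Lamb2, the beta-2 laminin chain, ranged from -0.37 in WT4 to 0.53 in WT2 and from -0.36 in KO1 to 0.58 in KO3, a spread many times its difference of 0.06, which was -0.10 without KO3 and -0.44 with sex as a covariate. The integrin subunits Itga3 and Itgb1 differed by 0.00 and 0.11. KO3 was the highest KO sample at all 4 genes.

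Of the transcription factors, Foxc2, which acts in podocyte differentiation, differed by -0.06 with overlapping groups. Lmx1b, which is mutated in human nail-patella syndrome and acts in podocytes, was well above background on only 2 arrays at one of its probes and 1 at the other. The scaffold Magi2 was above background on 0 arrays, and the phospholipase A2 receptor Pla2r1 and the Rac GTPase-activating protein Arhgap24 on 1 each. No fold is given for these 4 genes, which were not well above background.

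Of the 34 genes, 13 were listed here as made in the kidney mainly by podocytes and 21 as made by several cell types. These data do not measure that split. The 11 podocyte-enriched genes that were tested divided evenly, with 5 nominally higher and 6 lower in KO and a median difference of -0.01. In the main fit each of their intervals stayed within 1.5-fold (largest bound 1.43). With sex as a covariate the interval of Rhpn1 reached 2.15-fold. With the array software's log ratios Ddn differed by -0.34 ± 0.19 SE. The 19 tested genes of several cell types were nominally higher in KO at 17, with a median of 0.10, where 59.3% of all genes were higher. With sex as a covariate 13 of the 19 and 5 of the 11 were higher, beside 7705 of 13982 genes. The difference between these classes was not tested.

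KO3 was the highest KO sample at 16 of the 30 genes tested, and WT1 was the lowest WT sample at 14 and WT4 at 8. Over all genes too WT1 had the lowest median of the 8 arrays (-0.07), with 66.4% of genes below 0. KO3 was highest at 8 of the 11 podocyte-enriched genes, or 72.7%, and WT4 the lowest WT sample at 6, or 54.5%. Over all genes the shares of KO3 and WT4 were 31.2% and 18.4%. Of the 19 genes of several cell types, KO3 was highest at 8 and WT4 lowest at 2. WT1 was the lowest WT sample at 13 of these 19 and at 1 of the 11 podocyte-enriched genes. Its share over all genes was not counted. Several other lists leaned the same way to different extents, and some did not. KO3 was highest in KO and WT4 lowest in WT at 8 of 8 proximal tubule markers, and at 75% and 60% of the other basement membrane genes, 60% and 60% of leukocyte markers, 57.1% and 42.9% of collecting duct markers and 62.5% and 37.5% of endothelial markers. For mesangial and mural markers the shares were 66.7% and 16.7%. They were 14.3% and 0% for nephron progenitor markers, 14.3% and 14.3% for early nephron markers and 0% and 25% for parietal epithelium markers. The proximal tubule medians were 0.65 in KO3 and -0.72 in WT4, with the other 6 samples from -0.33 to 0.02. The part of these other cells in the podocyte gene values of KO3 and WT4 was not tested.

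**Figure D3:**
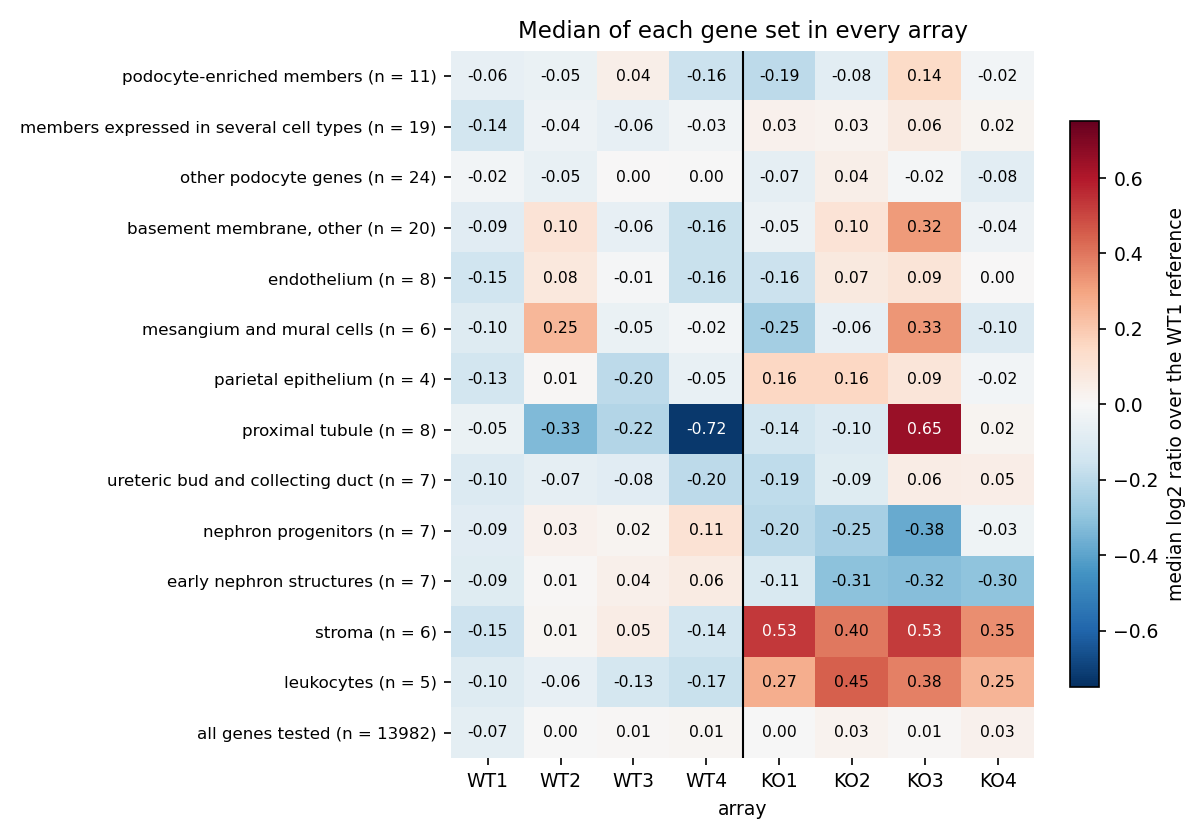
Median log2 ratio of each gene list in each of the 8 arrays. Proximal tubule markers run from -0.72 in WT4 to 0.65 in KO3, whereas the stroma and leukocyte medians are higher in all 4 KO samples than in any WT sample.

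Among 24 further podocyte genes tested, 1 passed, a share near the 2.15% of all genes. Wt1, a zinc finger transcription factor of both progenitors and podocytes, read -0.15, -0.09, 0.14 and 0.03 in WT1 to WT4 and -0.37, -0.43, -0.42 and -0.44 in KO1 to KO4. Every KO sample was below every WT sample, and Wt1 fell by 0.40 ± 0.09 SE (adjusted p = 0.0354). The call was weak: Wt1 stayed lower in KO under all 19 alternatives, with differences of -0.46 to -0.32, but passed the threshold in 7 of them. Against WT2 alone, with sex as a covariate, the difference was -0.32. The median over the 24 genes was 0.02, with KO nominally higher at 15. The groups did not overlap at 5 of the 24 genes, against 9.28% of all genes. Besides Wt1 these were, short of the threshold, Foxc1 (0.44, adjusted p = 0.0746), Col4a3 (0.28, adjusted p = 0.119), Mertk (0.26, adjusted p = 0.257) and Robo2 (-0.29, adjusted p = 0.105). They are named here after their values were seen. The progenitor markers Cited1 and Itga8 and the early nephron genes Fgf8, Dll1 and Lhx1 also fell, by 2.72, 0.40, 0.73, 0.60 and 0.86, so 2 of 7 progenitor and 3 of 7 early nephron markers passed. Itga8 passed in 5 of 19 alternatives and was 0.22 with the red channel alone. Whether the lower Wt1 came from progenitors or podocytes cannot be told apart in whole kidney.

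Among 20 other basement membrane genes, 3 rose and none fell, with a median of 0.13, where 225 of the 13982 genes rose and 76 fell. Col4a6 rose by 0.54 ± 0.11 SE (adjusted p = 0.0232), Nid1 (nidogen-1, which bridges laminin and collagen) by 0.47 ± 0.10 SE (adjusted p = 0.0382) and Col4a5 by 0.40 ± 0.09 SE (adjusted p = 0.0462). Each was higher in every KO sample than in any WT sample, but a second probe of Col4a6 gave -0.01 and the other probes of Nid1 gave 0.05 and 0.24. Of 19 alternatives, Col4a6 passed in 10 and Nid1 and Col4a5 in 6 each. Against WT2 alone, with sex as a covariate, Col4a6, Nid1 and Col4a5 differed by 0.57, 0.39 and 0.58. Type IV collagen alpha-5 belongs to the mature glomerular membrane, and alpha-6 to Bowman's capsule and tubules.

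Markers of other glomerular and neighbouring cells were measured in the same RNA. Of 8 endothelial markers none passed, with Cdh5 nearest at 0.37 ± 0.10 SE (adjusted p = 0.101), and none of 6 mesangial and mural markers passed. Of 4 parietal epithelium markers 1 rose (Akap12, 0.60), as did 4 of 6 stromal markers (Pdgfra, Lum, Col1a1 and Dcn) and 3 of 5 leukocyte markers (Mrc1, Cx3cr1 and Csf1r), beside 225 of 13982 genes. Of 19 alternatives, Csf1r passed in 3 and Col1a1 in 7, and the other probes of Csf1r gave 0.25 and 0.06. None of 8 proximal tubule markers passed, but all 8 were nominally higher in KO (median 0.33, 4 at an unadjusted p under 0.05). Of 7 ureteric bud and collecting duct markers 1 rose (Krt19, 0.54, adjusted p = 0.0386), with a median of 0.29, and Krt19 passed in 7 of 19 alternatives. The stromal median was from -0.15 to 0.05 in the WT samples and from 0.35 to 0.53 in the KO samples, and the leukocyte median from -0.17 to -0.06 and from 0.25 to 0.45. Of the genes named here as rising or falling, only Cited1 and Lhx1 passed with sex as a covariate. The part of these cells, epithelial ones included, in the nominally higher values of Tjp1, Fat1 and the laminins was not tested.

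**Figure D4:**
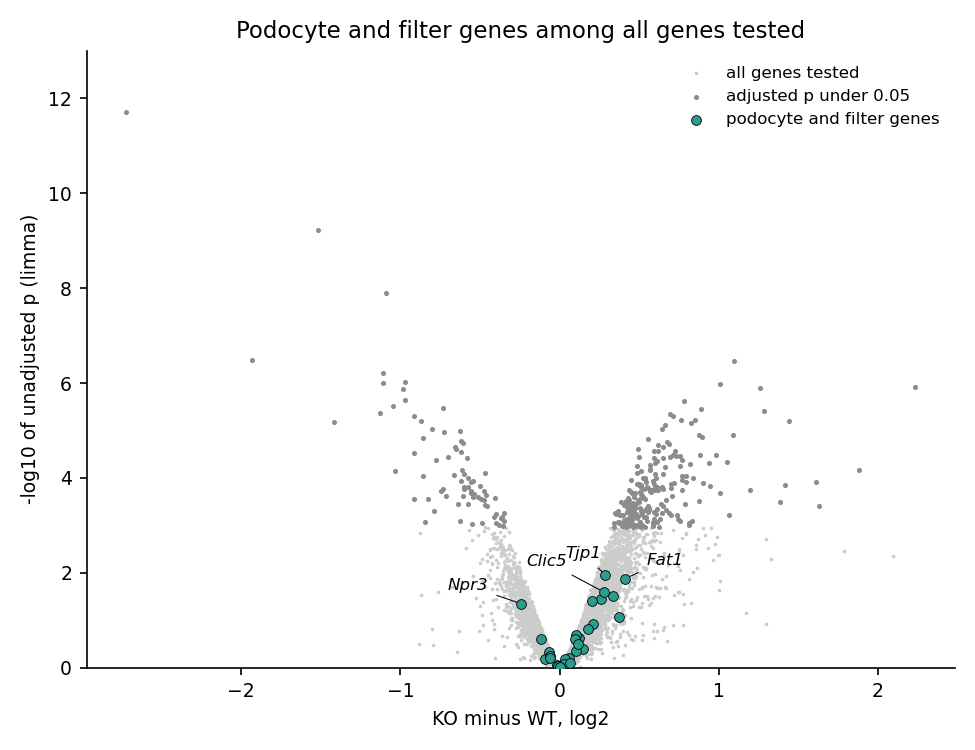
The -log10 of the unadjusted limma p (vertical) against the difference KO minus WT on the log2 scale (horizontal) for all 13982 tested genes, with genes at an adjusted p under 0.05 in dark grey and the 30 podocyte and filter genes in green. The green points lie between -0.24 and 0.41, all below the dark grey ones, while Cited1 at the far left reaches -2.72.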

How the data were processed

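Total RNA of 8 whole-kidney samples was hybridised to 2-colour Agilent mouse arrays of 59305 spots. Per the submitters' processing notes, Agilent Feature Extraction 10.7.3.1 gave the deposited intensity values, and the same software also wrote a log10 ratio of red over green. The deposited table of the whole series equals that ratio, converted to its scale, within 0.497%, with column medians of 0. The deposited flags (another kind of value, 0 or 1, per the file headers) marked 1765 outlier readings (0.372%), which were left out, and no spot was saturated. Here median signals were background-corrected (normexp, offset 50), loess-normalised within arrays and expressed as log2 ratios. A probe was kept if its red signal was well above background on at least 4 arrays, and the brightest kept probe stood for its gene. Of 55681 probes, 27509 were named through RefSeq accessions (names only). Groups were compared by limma 3.58.1 in R 4.3.3 with Benjamini-Hochberg adjustment over 13982 genes. The fit was also run on simulated data with independent noise in each array, which leaves out the deviations that these arrays share. The labels do not say that the kidney pairs came from separate litters, so p-values measure the spread between these samples.

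Of the podocyte and filter genes, those given with SE and adjusted p were the 10 of smallest p plus Nphs1, Podxl, Synpo and Ptpro. Genes of the other lists were named where they passed, or by smallest p where none did. The members and lists were chosen with earlier results of these data known. Same-numbered WT and KO samples, which share a slide column, deviated together (correlations 0.138, 0.373, 0.257 and 0.304, each over 0.1, though WT4 with KO1 gave 0.369 and WT2 with KO3 0.309), so the number was also fitted as a block. Other alternatives were other background, normalisation, filter and probe rules, sex as a covariate, the deposited ratios and leaving out samples. Array number and signal over background limit the precision.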

Additional observations from a re-analysis of the deposited data

Results flagged for a closer look

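A sample far from the other 3 of its group was looked for in 60 groups of 4 (Dixon's test at the 95% level, which chance passes in about 1 of 20 groups), and 3 were found. Ezr in KO3 was 0.239, with the other KO samples between 0.00577 and 0.0319. Lama5 in WT2 was 0.115, with the other WT samples between -0.316 and -0.244. Nck1, an adaptor of phosphorylated nephrin, was 0.224 in WT4, with the other WT samples between -0.159 and -0.125. Each was the highest of its group, and the WT and KO samples of Lama5 and Nck1 overlapped.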

How the results depend on the processing

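None of the podocyte and filter genes passed an adjusted p of 0.05 under any of 19 alternatives, and the lowest adjusted p was 0.0836 (Fat1, replicate block). The 19 are not separate checks: the deposited values repeat the software's ratios, and some alternatives called few genes over the whole array. The paired fit with the replicate block called 556 of all genes in place of 301 and changed no member's call. The count over all genes was 123 with the software's ratios, 123 with the deposited values, 12 with sex as a covariate, 1 with the red channel alone and 0 with median centring (178 at an unadjusted p under 0.05). Leaving out each sample in turn gave 83 (without KO4) to 345 (without KO1). The median member difference was 0.33 with the red channel alone, where that of all genes was 0.21. Of 265 values under an alternative of the 14 members given with a standard error, 250 kept their direction and 15 reversed. The reversals were Kirrel with the filter on all 8 arrays (-0.0738), Npr3 (0.0343) and Actn4 (-0.0394) with sex as a covariate, Clic3 (-0.13) and Podxl (0.46) with the red channel alone, Nphs1 with the software's ratios (-0.0337) and the deposited values (-0.0337), and Synpo with median centring (0.00768), the mean of all probes (0.0180) and without WT1 and KO1 (0.12). Leaving out each sample in turn gave Nphs1 -0.15 to 0.19 and Synpo -0.0818 to 0.0548. Of 301 such values of the other 16 members, 52 had the other sign, at 12 genes, among them Lamb2 with sex as a covariate (-0.44), Sulf1 with the filter on all 8 arrays (-0.22) and Foxc2 with the red channel alone (0.44). The cause of these changes was not tested. Podxl had no value under the filter on all 8 arrays. All 30 intervals stayed within 2-fold with the replicate block and without WT1 and KO1, as did 27 with sex as a covariate, 24 with median centring and 11 with the red channel alone.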
